A study of Homo sapiens with 6 samples.

Results

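Open chromatin was compared between RS4;11 (written RS411 in the sample titles and here) and SEM, a pair of B-cell precursor acute lymphoblastic leukemia lines that both carry the KMT2A-AFF1 fusion, each with a non-targeting control shRNA (NT). A region was RS411-only where both RS411 NT lists and neither SEM NT list had a peak, and SEM-only in the reverse case. The 4 NT lists gave 98325 merged regions on chromosomes 1 to 22, of which 18073 were RS411-only and 4389 SEM-only, or 22462 line-only regions in all. The 12 lists of the series together gave 126189 regions.

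The data are ATAC-seq peak lists, in which the Tn5 transposase cuts and tags accessible DNA. The series holds 6 samples, namely RS411, SEM and RCH (the growth protocol names an RCH-ACV line), each with NT or with sh2, an shRNA against the histone H3 lysine 36 methyltransferase NSD2. Each sample came with 2 lists, read here as 2 libraries. All lines were grown in RPMI1640 with serum, and the tissue is labelled bone marrow. Whether the 2 libraries of a sample are separate cultures is not labelled, and their spread may be only technical. A line with a given shRNA is 1 sample, no test between lines was possible, and the intervals given with shares of regions hold for counting error alone.

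KMT2A is a histone H3 lysine 4 methyltransferase, and the fusion joins its chromatin-targeting part to AFF1, a component of transcription elongation complexes. Peaks of accessible chromatin mark mostly promoters, enhancers and insulator sites. Those at promoters are largely shared between cell types and lie close together on gene-dense chromosomes, whereas distal sites differ more between cells. Coordinates are hg19, and genes were not assigned to regions, so the labelled cell type could not be checked against marker genes.

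Lists of 1 line overlapped more with each other than with the other line. The Jaccard index (bases shared by 2 lists over bases covered by either) was 0.672 between the RS411 NT libraries and 0.659 between those of SEM. RS411 NT lists shared 0.599 to 0.630 with the RS411 sh2 lists, and SEM NT lists 0.607 to 0.613 with the SEM sh2 lists. RS411 NT against SEM NT gave 0.470 to 0.490, so every one of these pairs lay below the pairs of a single line.

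The lists differed in length. RS411 NT library 1 had 81527 peaks on the autosomes and library 2 had 71463, whereas the SEM NT libraries had 52301 and 53475. The means were 76495 ± 7116 (SD, n = 2 libraries) and 52888 ± 830 peaks, with 32.9 ± 2.64 Mb and 24.2 ± 0.032 Mb covered. The authors' value for each peak has no label and was taken from its size to be a fold enrichment over its own library's background. The median fold was 6.67 and 6.82 in RS411 and 6.29 and 6.25 in SEM. Folds are not normalized between lists, so folds of different libraries set side by side show no change in level. Here they rank the peaks of each list, describe regions and, in 1 alternative, serve as a common threshold. Read depth is unknown.

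With the lists as deposited, RS411-only regions made up 18.4% of all regions and SEM-only regions 4.46%. RS411-only regions were thus 80.5% of the line-only regions (exact 95% binomial interval 79.9 to 81.0). A further 35158 regions (35.8%) were open in all 4 lists and are called shared regions here. Neither RCH NT list had a peak at 11.5% of them, so not all are open in every line. There were 7852 regions with both RS411 lists and 1 SEM list, and 2688 with both SEM lists and 1 RS411 list. Regions open in 1 RS411 list and no SEM list numbered 20309, of which 14028 came from library 1, the longer list. Their SEM counterpart was 7057.

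The excess of RS411-only regions was much smaller between lists of equal length. When each list was reduced to its 52301 peaks of highest fold, the length of the shortest list, 9178 regions were RS411-only (12% of 76255) and 7849 were SEM-only (10.3%). The RS411-only share became 53.9% (interval 53.2 to 54.7). The cut fell at a fold of 5.46 in RS411 library 1 and 4.98 in library 2, with ties at the cut, and removed 29226 and 19162 peaks. In SEM library 2 it fell between 3.277 and 3.276, and SEM library 1 lost none. Of the 7849 SEM-only regions in equal lists, 3630 (46.2%) had a deposited RS411 peak below the cut and 4219 had none. Of the 9178 RS411-only regions, 16 had a deposited SEM peak. A single library also moved the counts, since leaving one out asks for a peak in 1 list instead of both. Without RS411 NT library 2 there were 32476 RS411-only regions, and without SEM NT library 1 or 2 there were 8370 or 7930 SEM-only regions.

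**Figure D1:**
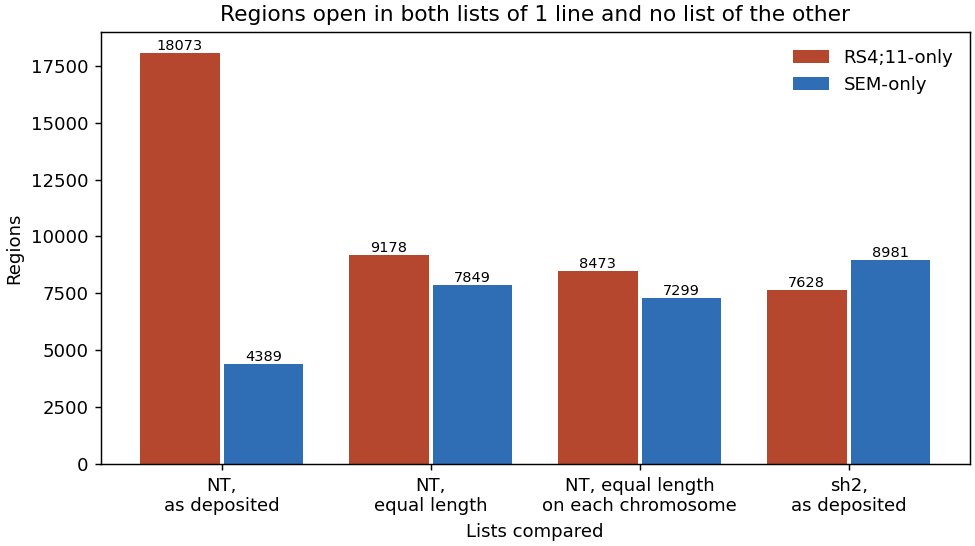
Number of RS411-only and SEM-only regions (bars, counts of merged regions) for the NT lists as deposited, with lists of equal length, with equal length on each chromosome, and for the sh2 lists as deposited. RS411-only regions are 18073 against 4389 in the first comparison and 7628 against 8981 in the last.

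The sh2 lists gave a comparison of the same lines at nearly equal length without any cut. RS411 sh2 had 59502 and 61253 peaks and SEM sh2 had 62120 and 60148. Between them 7628 regions were RS411-only (8.73% of 87392) and 8981 were SEM-only (10.3%), so that RS411 had 45.9% of the line-only regions (45.2 to 46.7). RS411 therefore held the larger class with NT and the smaller one with sh2. Sh2 is a different treatment, so this is the same pair of lines in other samples and not a replicate of NT.

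Line-only regions were narrower than regions open in all 4 lists and of moderate fold. Their median width was 344 bp for RS411-only and 369 bp for SEM-only regions, against 638 bp for regions open in all 4 lists. At least 1000 bp were spanned by 81 of 18073 RS411-only and 105 of 4389 SEM-only regions, and by 5960 of 35158 open in all 4. A region spans all peaks merged into it, from 2 lists in a line-only region and from 4 in the others. Part of the difference in width thus follows from the definition. Single peaks had median widths of 342 and 347 bp in the RS411 NT lists and 369 and 359 bp in the SEM NT lists. The median fold percentile of RS411-only regions within their own lists was 43.1 in library 1 and 36.9 in library 2, and that of SEM-only regions was 33.7 and 35.6. Regions open in all 4 lists stood at 74.9 and 71.7 in RS411 and at 64.2 and 64.9 in SEM. Regions just inside and just outside the rule are compared by the highest fold of the line's own libraries. The highest RS411 fold had a median of 6.37 at RS411-only regions, 7.35 where 1 SEM list also had a peak, and 4.24 where only 1 RS411 list had one. For SEM the medians were 5.85 at SEM-only regions, 5.85 where 1 RS411 list also had a peak, and 4.39 where only 1 SEM list had one.

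Whether members were open in the same line was read from the sh2 lists, which the rule did not use. Of the RS411-only regions, 46.5% (45.7 to 47.2) had a peak in both RS411 sh2 lists and 14.0% (13.5 to 14.5) in both SEM sh2 lists. Over all regions these shares were 49.3% and 47.7%. Neither SEM sh2 list had a peak at 68.2% of them, against 39.6% of all regions. Of the SEM-only regions, 64.2% (62.8 to 65.6) had a peak in both SEM sh2 lists and 4.37% (3.79 to 5.02) in both RS411 sh2 lists. Neither RS411 sh2 list had a peak at 83.5% of them, against 37.9% of all regions. Regions open in 1 RS411 NT list and no SEM NT list reached 6.87% in both RS411 sh2 lists, and their SEM counterparts 22.2% in both SEM sh2 lists. Members of either class thus had higher shares than regions seen in 1 library only. The latter also had lower folds (medians of 4.24 and 4.39, against 6.37 and 5.85), so this order cannot be told apart from one of peak strength. Against all regions, the share in both own sh2 lists was lower for RS411-only regions (46.5% against 49.3%). It was higher for SEM-only regions (64.2% against 47.7%). With NT lists of equal length, 63.1% of RS411-only regions were open in both RS411 sh2 lists (60.8% of all regions) and 68.3% of SEM-only regions in both SEM sh2 lists (60.2%). When the sh2 lists were cut to that length too, the order of the classes turned, to 58.4% (56.0% of all regions) and 52.8% (54.0%).

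The full pattern, a peak in both sh2 lists of the own line and in neither sh2 list of the other, was met by 4724 RS411-only regions (26.1%, 25.5 to 26.8) and by 2370 SEM-only regions (54.0%, 52.5 to 55.5). Over all regions 7.25% had the RS411 pattern and 6.83% the SEM pattern. The opposite pattern was met by 327 RS411-only regions (1.81%) and by 14 SEM-only regions (0.319%). With NT lists of equal length the pattern was met by 3022 RS411-only regions (32.9%, with 7.49% of all regions) and 3034 SEM-only regions (38.7%, with 8.25%). On that footing the RS411 share of the regions that met the pattern was 49.9% (48.6 to 51.2), compared with 66.6% (65.5 to 67.7) as deposited. The sh2 lists were not cut here. Of the 7849 SEM-only regions in equal NT lists, 3630 had a deposited RS411 NT peak, against 16 of the 9178 RS411-only regions. How many of the 3034 were among those 3630 is not given here, so the even split depends on the cut.

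Stronger members were found again more often. When RS411-only regions were ordered by the mean of their fold percentiles and cut into 4 groups of about 4518, both RS411 sh2 lists had a peak at 24.8% of the weakest group, 33.1% and 51.4% of the middle groups and 76.6% of the strongest. In SEM-only regions, in groups of about 1097, the shares in both SEM sh2 lists were 43.9%, 57.0%, 68.3% and 87.8%. The lists of the other line behaved differently for the 2 classes. Both SEM sh2 lists had a peak at 7.28% of the weakest and 22.05% of the strongest RS411-only regions, whereas both RS411 sh2 lists had one at 5.10% of the weakest and 3.37% of the strongest SEM-only regions. The SEM sh2 lists are longer than the SEM NT lists, and the RS411 sh2 lists shorter than the RS411 NT lists. With NT lists of equal length the directions were the same, with 13.99% and 23.2% for RS411-only regions and 34.6% and 14.5% for SEM-only regions. In that setting 3630 of the 7849 SEM-only regions had a deposited RS411 NT peak that the cut removed. These SEM-only shares are therefore no check free of list length.

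**Figure D2:**
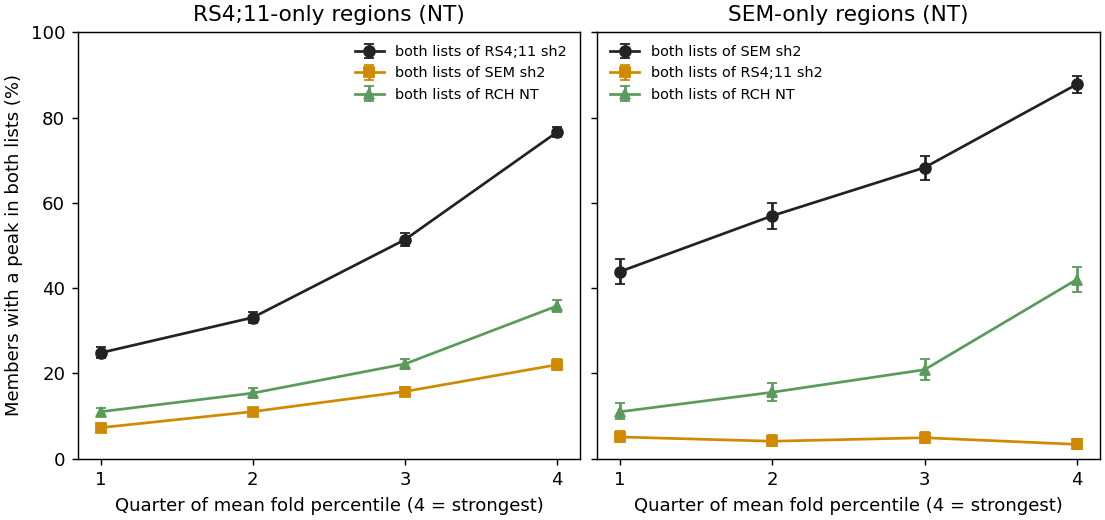
Percent of RS411-only (left) and SEM-only (right) regions with a peak in both lists of the own line's sh2 sample, the other line's sh2 sample and RCH NT, by group of mean fold percentile (4 is the strongest), with exact 95% binomial intervals. In the strongest groups 76.6% and 87.8% are open in both own sh2 lists.

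Members in the top 10% of folds in both of their lists were few, with 134 RS411-only and 54 SEM-only regions. Of the 134, 130 had a peak in both RS411 sh2 lists (97.0%, 92.5 to 99.2). In both SEM sh2 lists 48 (35.8%) had a peak, and 41 (30.6%) had none in either. Over all regions these shares were 49.3%, 47.7% and 39.6%. Of the 54, 52 had a peak in both SEM sh2 lists (96.3%, 87.3 to 99.5). In both RS411 sh2 lists 1 (1.85%) had a peak, and 48 (88.9%) had none in either. Over all regions these shares were 47.7%, 49.3% and 37.9%. The shares over all regions are not matched for fold. Regions open in all 4 NT lists had a peak at 90.5% in both RS411 sh2 lists and at 92.1% in both SEM sh2 lists. Of the 134, 25 lay on chromosome 13, 5 on chromosome 9 and 0 on chromosome 19, and of all 18073 RS411-only regions these chromosomes held 1081, 698 and 79. Of the 54, 1, 5 and 5 lay there, and of all 4389 SEM-only regions 68, 249 and 349.

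The strongest RS411-only region lay on chromosome 13 from 101820137 to 101820952. Its fold was 22.3 and 21.0 in RS411 NT and 14.0 and 12.2 in RS411 sh2. SEM had no peak there with NT and a peak of fold 5.12 in 1 sh2 library, and no RCH list had one.

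The second spans 130786044 to 130786699 of chromosome 11. RS411 had folds of 20.04 and 23.05 there with NT and of 21.2 and 20.2 with sh2. All RCH lists were open there, with 15.2 and 13.8 (NT) and 15.0 and 12.05 (sh2), so among these lines SEM was the one without a strong peak. SEM had a peak of 4.78 in sh2 library 1 alone.

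On chromosome 8 from 137835971 to 137836410 the RS411 NT folds were 22.2 and 19.4, and those of RS411 sh2 were 7.33 and 7.73. Both SEM sh2 libraries had a weak peak there, with 4.78 and 4.40. On the same chromosome from 60610574 to 60610984 the RS411 NT folds were 21.9 and 19.5, with 5.49 in SEM sh2 library 1. The fifth region spans 38482499 to 38482882 of chromosome 11. RS411 had folds of 23.8 and 18.9 there with NT and 17.1 and 20.0 with sh2, and SEM had 6.56 and 6.82 with sh2. Thus each of the 5 strongest RS411-only regions had a peak in at least 1 SEM sh2 list, at a fold under 7.

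The strongest SEM-only region lay on chromosome 4 from 176986722 to 176987456. SEM had folds of 18.1 and 17.1 with NT and 20.9 and 20.9 with sh2, and RS411 had none with NT and 4.60 in 1 sh2 library. The second spans 46097262 to 46098268 of chromosome 6, where SEM had folds of 16.6 and 17.3 with NT and 17.5 and 14.3 with sh2. It was open in no RS411 or RCH list, and so was found in all 4 SEM lists alone.

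The third spans 27131313 to 27132233 of chromosome 13, with SEM folds of 17.2 and 16.3 (NT) and 13.5 and 13.6 (sh2). RCH was open there in all 4 lists, with 13.01 and 12.7 (NT) and 6.55 and 7.81 (sh2), and RS411 in none. On chromosome 5 from 57878546 to 57879162 the SEM NT folds were 16.3 and 16.4 and those of RCH NT 13.6 and 8.90, again with no RS411 peak. The fifth, at 22405925 to 22406663 of chromosome 9, had SEM folds of 14.9 and 17.1 (NT) and 22.6 and 21.0 (sh2), and lies in the stretch described next. Of these 5 regions, 4 had no peak in any RS411 list.

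Runs were series of line-only regions with no NT peak of the other line between them, and regions open in 1 list of the own line could lie among them. The longest was on chromosome 9 from 19918674 to 24933148, a stretch of 5.01 Mb. It held 79 SEM-only regions, 23 regions open in 1 SEM NT list, and no RS411 peak. The next longest SEM-only run had 8 regions and the longest RS411-only run 14. SEM had 96 and 90 peaks in the stretch with NT and 113 and 112 with sh2, and RCH had 79 and 78 with NT and 46 and 42 with sh2. All 4 RS411 lists, both NT and both sh2, had 0.

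RS411 had peaks on both sides of it. In the 1 Mb before the stretch its NT libraries had 36 and 40 peaks, more than the 22 and 18 of SEM NT, and in the 1 Mb after it they had 15 and 10, against 4 and 8. The last RS411 peak before the stretch ended at 19782315 in NT library 1 and 19782329 in library 2, and at 19840490 and 19856955 in sh2. The first after it began at 25134360, 25188478, 25226065 and 25474194 in the same order. Each RS411 list was thus without a peak over 5.35 to 5.62 Mb.

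The SEM-only regions of the stretch were stronger than other members, with a median fold percentile of 53.5 against 34.3. Both SEM sh2 lists had a peak at 71 of the 79 (89.9%, 81.0 to 95.5), and both RCH NT lists at 48 (60.8%, 49.1 to 71.6), where SEM-only regions as a whole gave 64.2% and 22.4%. The stretch held 1.80% of all SEM-only regions and 31.7% of those on chromosome 9. The RS411-only share on this chromosome was 73.7%, and 80.4% without the stretch. The peak lists hold no read numbers, so the signal of RS411 below the peak caller's limit is not known.

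**Figure D3:**
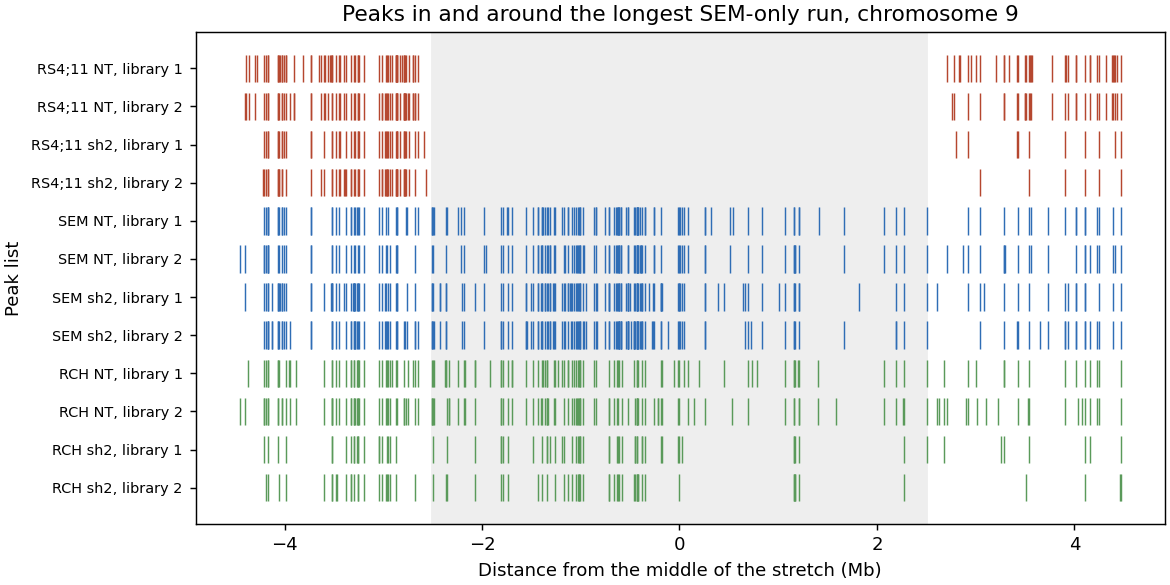
Peaks of the 12 lists (vertical ticks, 1 row per list) by distance in Mb from the middle of the chromosome 9 stretch, which is shaded. The 4 RS411 rows are empty inside the stretch, where the SEM rows hold 90 to 113 peaks and the RCH rows 42 to 79.

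The other long runs were shorter. The second SEM-only run, on chromosome 14 from 106471153 to 106610406, had 8 regions in 0.139 Mb, with 11 and 9 SEM NT peaks, 9 and 6 SEM sh2 peaks and 0 in all RS411 lists. RCH had at most 2 peaks there, so nearly all peaks of this run were from SEM. On chromosome 19 from 14332130 to 14486494 a run of 6 held 8 and 7 SEM NT peaks, and RS411 had 2 in 1 sh2 library. A run of 6 on chromosome 2 from 1618433 to 1748525 held 10 and 10 SEM NT peaks and 11 and 11 SEM sh2 peaks, and RS411 had 0 in all 4 lists. RCH NT had 13 and 10 peaks there.

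The longest RS411-only run, on chromosome 13 from 65910272 to 67056720, had 14 regions, with 28 and 16 RS411 NT peaks and 14 and 11 with sh2. SEM had 0 with NT, but 4 and 5 with sh2. A run of 12 on the same chromosome, from 85334743 to 85836260, had 16 and 13 RS411 NT peaks, and SEM had 2 and 3 with sh2. The run on chromosome 8 from 143335477 to 143651533 had 12 regions. RS411 had 16 and 16 peaks there with NT and 15 and 18 with sh2, RCH NT had 12 and 13, and SEM had 0 with NT and 1 and 4 with sh2. With equal lists it was the longest RS411-only run, with 11 regions. A run of 11 on chromosome 19, at 28780097 to 29178003, had 14 and 12 RS411 NT peaks and 6 and 4 with sh2. SEM had 0 in all 4 lists there, unlike in the 3 longer runs, and RCH NT had 11 and 13.

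The balance of the classes differed between chromosomes. Gene-dense chromosome 19 had 79 RS411-only and 349 SEM-only regions, an RS411-only share of 18.5% (14.9 to 22.5). Chromosome 17 had 209 and 339 (38.1%, 34.1 to 42.4). With the lists as deposited, RS411-only regions were the more numerous class on 20 of 22 chromosomes, all but these. With equal lists they were so on 15 of 22, and with the sh2 lists on 6 of 22. Chromosome 22 was next, with 139 and 96 (59.1%).

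At the other end, gene-poor chromosome 13 had 1081 RS411-only and 68 SEM-only regions (94.1%, 92.6 to 95.4). The share was 90.3% on chromosome 18 (711 and 76) and 89.5% on chromosome 4 (1580 and 186). Chromosome 13 was the only one with more RS411-only regions than regions open in all 4 lists, at 137.9 per 100, whereas chromosome 19 had 6.55 per 100. SEM-only regions ranged from 8.44 per 100 on chromosome 18 to 28.9 on chromosome 19.

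With lists of equal length the 3 lowest and the 3 highest chromosomes were the same. The RS411-only share was 5.53% on chromosome 19 (32 of these against 547 SEM-only regions), 14.1% on chromosome 17 and 24.7% on chromosome 22, and 84.5% on chromosome 13, 70.9% on chromosome 18 and 69.2% on chromosome 4. The lists differed in the same direction as a whole, since 2.07% and 2.20% of RS411 NT peaks lay on chromosome 19, against 3.89% and 3.75% of SEM NT peaks. When lists were cut to equal length on each chromosome separately, 8473 regions were RS411-only (11.4% of 74221) and 7299 SEM-only (9.83%), and the share ran from 43.1% on chromosome 19 to 57.5% on chromosome 13.

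The sh2 lists kept part of the pattern. The RS411-only share was again lowest on chromosome 19 (29.2%), followed by chromosome 17 (36.5%), and highest on chromosome 13 (70.5%, 427 against 179). Chromosome 22 was second highest with 63.2%, and chromosome 4 had 40.6%. Peaks on chromosome 19 made up 2.86% and 2.80% of the RS411 sh2 lists and 3.24% and 3.09% of the SEM sh2 lists, closer than with NT. Among members that met the full pattern in sh2 as well, the share was 20.3% on chromosome 19 (36 against 141 regions), 34.7% on chromosome 17 (66 against 124) and 87.8% on chromosome 13 (316 against 44). Chromosomes 13, 17 and 19 thus lay on the same side of 50% in the NT lists, as deposited or of equal length, and in the sh2 lists. Over all 22 chromosomes the order was kept only weakly. The Spearman rank correlation of the sh2 shares was 0.259 with the NT shares as deposited and 0.257 with those of equal length. Chromosome 4 lay above 50% with NT and below it with sh2, and chromosome 22 lay below it in the NT lists of equal length alone.

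**Figure D4:**
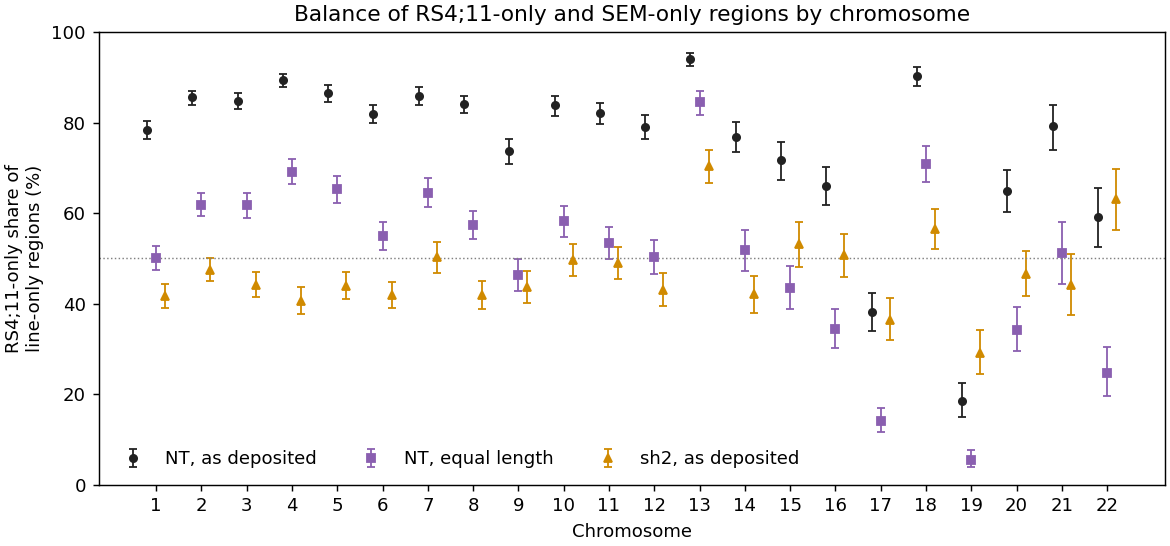
RS411-only share of line-only regions (percent) on each autosome for the NT lists as deposited, NT lists of equal length and the sh2 lists, with exact 95% binomial intervals and a dotted line at 50%. Chromosomes 17 and 19 lie below the line and chromosome 13 above it in all 3 comparisons.

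Taken as a whole class, RS411-only regions with NT lay farther from shared regions than SEM-only regions did. The median distance from RS411-only regions to a region open in all 4 NT lists was 25.1 kb (order-statistic 95% interval 24.5 to 25.7). It was 16.5 kb (15.4 to 17.4) for SEM-only regions, and 15.4% against 11.3% lay more than 100 kb away. RS411-only regions were the farther class on 19 of 22 chromosomes. In the other comparisons the distance was to their own shared regions. With equal lists these were the 30591 regions open in all 4 cut lists. The medians were 30.8 and 15.8 kb, and RS411-only regions were farther on 22 of 22. With the sh2 lists they were the 36601 regions open in all 4 sh2 lists. There the order turned, to 14.8 and 20.8 kb, and RS411-only regions were farther on 3 of 22. Both the classes and the shared regions thus differ between these comparisons. NT members that met the full pattern in sh2 as well had medians of 18.3 kb (RS411-only) and 21.3 kb (SEM-only). These were distances to regions open in all 4 NT lists. With NT lists of equal length, and their own shared regions, the medians of such members were 25.1 and 26.3 kb. In these members RS411-only regions were thus not the farther class.

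Local density was read from lists of another line. The regions open in both RCH NT lists within 500 kb of each member were counted, leaving out any at the member itself. As deposited, the RS411-only share was 88.6% where this number was 0 to 4, 83.4% at 10 to 19 and 55.7% (51.4 to 59.9) at 40 or more. With equal lists it was 68.8%, 60.5% and 20.5%. With the sh2 lists it was 37.6% at 0 to 4, 33.7% (31.7 to 35.7) at 5 to 9, 44.3% at 10 to 19 and 54.5% at 40 or more. It was thus higher in the densest than in the sparsest class, with its lowest value at 5 to 9.

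The difference in density held within chromosomes as well as between them. The median density of SEM-only regions was above that of RS411-only regions on 16 of 22 chromosomes as deposited and below it on 3, with 3 ties. With equal lists it was above on 19 and below on 0. With the sh2 lists it was above on 2 and below on 20. The position of the line-only classes relative to dense chromatin was therefore opposite in the NT and sh2 samples of the same 2 lines.

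**Figure D5:**
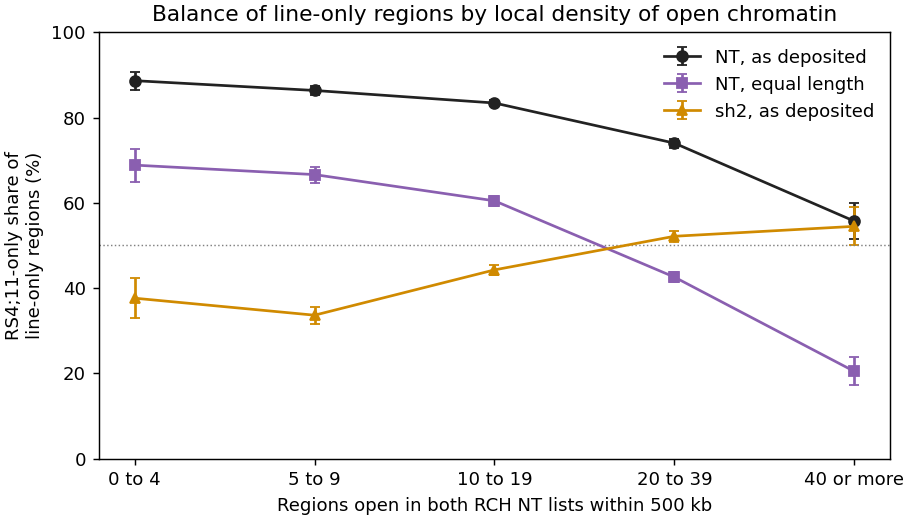
RS411-only share of line-only regions (percent, with exact 95% binomial intervals) by the number of regions open in both RCH NT lists within 500 kb. The share falls from 88.6% to 55.7% for the NT lists as deposited and from 68.8% to 20.5% at equal length, and goes from 37.6% over 33.7% to 54.5% for the sh2 lists.

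Single megabases were counted with the lists as deposited, where 80.5% of line-only regions were RS411-only. Bins of 1 Mb with at least 10 line-only regions numbered 979, of which 904 had more RS411-only and 64 more SEM-only regions. Of the 64, 28 were on chromosomes 17 and 19, which held 339 and 349 of the 4389 SEM-only regions. How many of the 979 lay on these chromosomes, and the same counts with equal lists, are not given here. The bin at 2 to 3 Mb of chromosome 19 had 0 RS411-only and 30 SEM-only regions beside 41 open in all 4 lists, and with sh2 it had 1 and 13. Outside the chromosome 9 stretch, whose bin at 21 to 22 Mb had 37 SEM-only regions, this was the bin with most SEM-only regions. The bin at 76 to 77 Mb of chromosome 17 had 2 and 19 with NT and 4 and 6 with sh2.

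RS411-only regions were most numerous in the bin at 72 to 73 Mb of chromosome 18, with 27 and no SEM-only region, and with sh2 it had 9 and 5. The bin at 13 to 14 Mb of the same chromosome had 25 and 1, and 15 and 2 with sh2. At 80 to 81 Mb of chromosome 13 the numbers were 23 and 1, and 10 and 6 with sh2.

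RCH, which was not used by the rule, had peaks at like shares of both classes with NT. Both RCH NT lists had a peak at 21.1% (20.5 to 21.7) of the RS411-only and 22.4% (21.1 to 23.6) of the SEM-only regions, against 38.2% of all regions and 77.2% of those open in all 4 NT lists. Neither RCH NT list had one at 60.6% and 64.4%, against 47.8% of all regions. With equal lists the shares in both were 28.5% and 28.1%, with 47.4% of all regions. With RCH sh2 the shares were farther apart, at 9.26% (8.84 to 9.69) of RS411-only and 19.7% (18.5 to 20.9) of SEM-only regions, against 29.3% of all regions, and with equal lists at 12.5% and 24.7%, against 36.8%. The RCH sh2 lists had 43043 and 40506 peaks, of which 4.84% and 4.89% lay on chromosome 19, against 3.19% and 3.09% in RCH NT. The part of this difference in composition was not tested.

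The 35158 regions open in all 4 NT lists could be compared by rank, since each list then ranks the same regions by fold. The median absolute difference in rank percentile was 6.24 points between the RS411 libraries and 8.64 between the SEM libraries, and 13.03 to 13.8 between lines. At 10275 regions (29.2%) both RS411 libraries ranked above both SEM libraries, and at 11440 (32.5%) both ranked below. A gap of at least 50 points was found at 303 regions with RS411 higher (0.862%) and 206 with SEM higher (0.586%).

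The direction of these gaps, not their size, was looked up in the sh2 lists. Of the 303 regions, 267 were open in all 4 sh2 lists, and RS411 ranked above SEM at 249 of them (93.3%). Among all 30179 regions open in all NT and sh2 lists of both lines, RS411 ranked above SEM at 51.0% with sh2 and SEM above RS411 at 49.0%. Of the 206, 118 were open in all 4 sh2 lists, and SEM ranked higher at 111 (94.1%). The median rank difference with sh2 was 39.4 points in the first set and 27.7 in the second, both under the 50 points asked for with NT. At the regions with the largest gaps, where all 4 sh2 lists were open, the direction was thus mostly kept. This does not extend to the other shared regions.

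Ranks at shared regions followed the chromosomes too. On chromosome 19 the median rank difference (RS411 minus SEM) was -20.2 points, on chromosome 17 it was -14.2 and on chromosome 22 it was -12.2, against 6.06 on chromosome 13 and 4.83 on chromosome 18. Of the 206 regions with a gap in favour of SEM, 38 lay on chromosome 19, and of the 303 in favour of RS411, 0 did. On chromosome 13 lay 1 and 13. Of all 35158 regions compared, 1207 lay on chromosome 19 and 784 on chromosome 13. In the sh2 lists, at regions open in all 4 of them, the differences were smaller, at -6.41 on chromosome 19, -2.53 on chromosome 17 and -1.80 on chromosome 22, and 3.91 on chromosome 13.

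The largest gap in favour of RS411 was on chromosome 5 from 158954525 to 158955183, where RS411 ranked at percentiles 95.6 and 95.2 and SEM at 1.62 and 6.13. RS411 sh2 had folds of 16.8 and 16.3 there, and SEM sh2 a peak of 4.56 in 1 library. The largest in favour of SEM was on chromosome 7 from 83427815 to 83428305, with percentiles of 93.4 and 99.0 in SEM and 1.27 and 0.202 in RS411. SEM sh2 had folds of 16.9 and 17.1 and RS411 sh2 had no peak. The next in favour of SEM spans 52489977 to 52490352 of chromosome 19, with percentiles of 96.4 and 96.0 in SEM and 1.95 and 8.09 in RS411. These 3 regions were chosen after their values were seen.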

How the data were processed

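ATAC-seq peak lists of 6 samples, 2 per sample, were used. Bowtie2, MACS2 and hg19 are named in the submitters' processing notes. For their versions and settings, and for duplicate removal and read shifting, nothing is given in the sources used here. Each list has 5 columns and no header. The last, deposited by the authors, was taken from its values to be a ratio, the fold of each peak over its own library's background. Read depth is unknown.

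Peaks on chromosomes 1 to 22 of the 4 NT lists were merged where they shared at least 1 bp, and a list was open in a region if it had a peak there. Alternatives were lists of equal length (overall or on each chromosome), folds at or above the pooled median (6.52), 50% coverage, a distance of 1 kb from the other line, and each list left out. The comparison of sh2 lists, the setting without the chromosome 9 stretch and the cut of all 8 lists were added after the data were seen.

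Named regions were the 5 strongest and the 3 most distant from the other line per class, the longest and widest runs, and the leading bins, chromosomes and arms. Members and rules were chosen with earlier results of these data known. Intervals are exact binomial (Clopper-Pearson) at 95%, and those of medians use order statistics. Merging was checked with bedtools 2.31.1. The code that assigns the classes was checked on simulated lists with planted regions, which does not test how reliable the classes are. The scripts ran in Python 3.11.15 with pandas 2.3.3, numpy 2.4.6, matplotlib 3.10.9 and scipy 1.17.1. No hg19 annotation or sequence was used, so no genes or sequences are given.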

Additional observations from a re-analysis of the deposited data

How the results depend on the processing

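No paired analysis was possible because each line with each shRNA is 1 sample and the labels give no replicate numbers. With equal lists there were 9178 RS411-only and 7849 SEM-only regions, a share of 53.9%, and with equal lists on each chromosome 8473, 7299 and 53.7%. In these 2 settings, 63.1% and 64.6% of RS411-only regions were open in both RS411 sh2 lists, 68.3% and 69.4% of SEM-only regions in both SEM sh2 lists, 28.5% and 29.6% (RS411-only) and 28.1% and 29.2% (SEM-only) in both RCH NT lists, and the RS411-only median distance was 30.8 and 29.3 kb. With folds at or above the pooled median there were 1831 SEM-only regions and a share of 87.0%. The shares in own sh2 lists were then 83.2% (RS411-only) and 92.2% (SEM-only), those in RCH NT 49.8% and 51.2%, and the distances 49.2 and 46.4 kb. Distances in this section were to the regions open in all lists of the setting concerned. With 50% coverage they were 33.4 and 21.0 kb. At 1 kb from the other line the share was 81.4%, the distances 28.7 and 20.3 kb, and SEM-only regions were open at 66.2% in SEM sh2 and 23.8% in RCH NT.

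Leaving out 1 list gave 21841 to 32476 RS411-only and 5168 to 8370 SEM-only regions, a share of 72.3% to 86.3%, own sh2 shares of 29.4% to 50.04% (RS411-only) and 44.8% to 65.0% (SEM-only), RCH NT shares of 14.4% to 24.2% and 14.5% to 23.5%, and distances of 20.1 to 26.3 kb and 13.8 to 15.2 kb. Counts rise here by construction, since 1 peak less is asked for. The last 3 settings were chosen after seeing the data. The sh2 lists gave 7628 and 8981 regions, a share of 45.9% and distances of 14.8 and 20.8 kb, so that both the larger class and the farther class were the opposite of those with NT. The cause was not tested. With all 8 lists at equal length, 58.4% of RS411-only and 52.8% of SEM-only regions were open in both own sh2 lists, the reverse of their order as deposited. Without the chromosome 9 stretch there were 4310 SEM-only regions, and the 9 results tried stayed within their intervals or within 1.5 times the count.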

Other observations

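Chromosomes were also split at their longest stretch without a peak in any list, where it exceeded 2.5 Mb. The lowest RS411-only share was on chromosome 19 before this gap, with 28 RS411-only and 197 SEM-only regions (12.4%), followed by the part after it with 51 and 152 (25.1%) and by chromosome 17 before the gap with 50 and 108 (31.6%). Leaving aside a part of chromosome 21 with 5 line-only regions, the highest shares were on chromosome 13 (94.1%), on chromosome 18 after the gap with 600 and 50 (92.3%) and on chromosome 8 after the gap (91.3%). Chromosome 8 was uneven, since the part before the gap had 151 and 131 (53.5%). With the sh2 lists, chromosome 8 had 376 and 325 after the gap (53.6%) and 63 and 283 before it (18.2%).

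Among RS411-only regions, the farthest from any SEM NT peak lay on chromosome 13 from 19280697 to 19280954, at 880.1 kb, with folds of 4.85 and 4.98 and no peak in any of the 8 sh2 and RCH lists. On chromosome 12 from 130396041 to 130396314 a region 836.4 kb away had folds of 8.53 and 6.64 with NT and 7.99 and 6.89 with sh2, and SEM had no peak with either shRNA. The 3 farthest SEM-only regions all lay in the chromosome 9 stretch, at 2648 to 2664 kb. With lists of equal length the strongest SEM-only region was on chromosome 7 from 102212748 to 102213379, where SEM had folds of 18.0 and 21.9 with NT and 13.3 and 12.97 with sh2. RS411 NT library 1 had a deposited peak of 3.34 there, which the cut removed.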
